A study of Arabidopsis thaliana with 8 samples.

Results

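The chloroplast chromosome of Arabidopsis thaliana carries genes for subunits of the photosynthetic complexes, and 43 of them were read on these arrays. They were chosen by name and place: a probe set had to name 1 gene on the plastid chromosome, with a symbol starting with psa (photosystem I), psb (photosystem II), pet (cytochrome b6f complex), atp (ATP synthase) or ndh (NDH complex), or rbcL, the large subunit of Rubisco. The gene table lists 44 such genes. The exception was ndhB, which lies in 2 copies, and its probe set names both. Each of the 43 genes had 1 probe set, out of 22746 on the array with controls left out. Photosystem I has 5 of them, photosystem II 15, cytochrome b6f 6, ATP synthase 6, the NDH complex 10 and Rubisco 1. The same table placed 26 further named genes on the plastid chromosome.

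The study compared leaves of plants of accession Col-0 kept in elevated CO2 with leaves of plants that were not, as controls. All 8 arrays, of both groups, are labelled 0 h. Each group had 4 ATH1 arrays, an Affymetrix design on which a probe set reads biotin-labelled RNA from 1 gene or from close relatives. The 8 samples were developing leaves at insertions 19 to 21, from plants in a growth room at 20 °C and 50% humidity with 10 h of light, on compost. Only elevated replicate 1 is labelled with a CO2 level, 750 ppm, and with 24 h in a cuvette before harvest, and for elevated replicate 4 the text omits the word CO2. The environment description of all 8 arrays calls the atmosphere normal, so the treatment text sets the group, except for not-elevated replicate 1. That array has a title code unlike the other 3 of its group, and its treatment text does not name it as a control. It was kept in the not-elevated group because no elevated CO2 is named for it, so its group is inferred. Whether replicates are separate plants is not stated, so the p-values rest on a spread between arrays that could be technical.

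Photosystem II takes electrons from water, the cytochrome b6f complex passes them on while pumping protons, and photosystem I lifts them to reduce the carriers that feed carbon fixation. ATP synthase makes ATP from the proton gradient, the NDH complex returns electrons around photosystem I, and Rubisco fixes CO2. These complexes are mosaics: the plastid encodes part of the subunits, most of the chlorophyll-binding core among them, and the nucleus supplies the rest. Plastid genes are transcribed in groups, by a polymerase whose core the plastid encodes and by a phage-type enzyme from the nucleus, and the long transcripts are then cut, trimmed and edited. Much of their regulation lies in RNA stability and translation. A hybridisation signal reads RNA amount, so it does not tell synthesis from stability, and it does not read translation. Mature plastid mRNAs generally lack the stable poly(A) tails of nuclear mRNAs, and how the RNA was primed for labelling is not given in the sources used here.

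Pairs of arrays correlated at 0.967 to 0.986, and 66.1% to 69.7% of probe sets read at least 20 units, the mean that a probe set needed to be tested. Not-elevated replicate 2 stood apart in its brightest values, with a 99th percentile of 1605 units against 1802 to 1907 units on the other 7 arrays, and in the 25S ribosomal RNA control, at 600.2 units. The same control read 112, 147 and 73.4 units on the other not-elevated arrays and 100.7, 191, 95.8 and 366 units on elevated replicates 1 to 4. Elevated replicate 1 had the highest 3′ to 5′ ratios of the actin and GAPDH controls, 2.29 and 1.25, where the other arrays spanned 1.41 to 2.04 and 1.00 to 1.20. RCA, which activates Rubisco and marks green leaf, read 3057 ± 492 units in the not-elevated group and 3445 ± 223 units in the elevated group (SD, n = 4). It was the only one of 10 leaf markers named by the tables used here. Of 6 root markers 3 were named, and their summed signal was 26.0 to 41.9 units and 20.7 to 46.1 units, with 2 of the 3 under 20 units. FMA, a stomatal lineage gene and 1 of 6 epidermal markers, read 62.0 ± 12.5 and 63.4 ± 7.43 units. Vascular, meristem, flower and seed markers had no named probe set in these tables, so their presence was not tested.

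Plastid photosynthesis genes were among the brightest probe sets. Their mean signals over all 8 arrays had a median of 1014 units, against 84.4 units for the 15296 probe sets tested. All 43 passed the minimum mean signal of 20 units; 22 were at 1000 units or more, 35 at 200 units or more, and 5 under 100 units. Together they made up 1.60% to 1.87% of all signal on an array. Signals of different probe sets depend on their probes and are not per length, so the order below is that of probe set brightness and not of transcript amount.

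**Figure D1:**
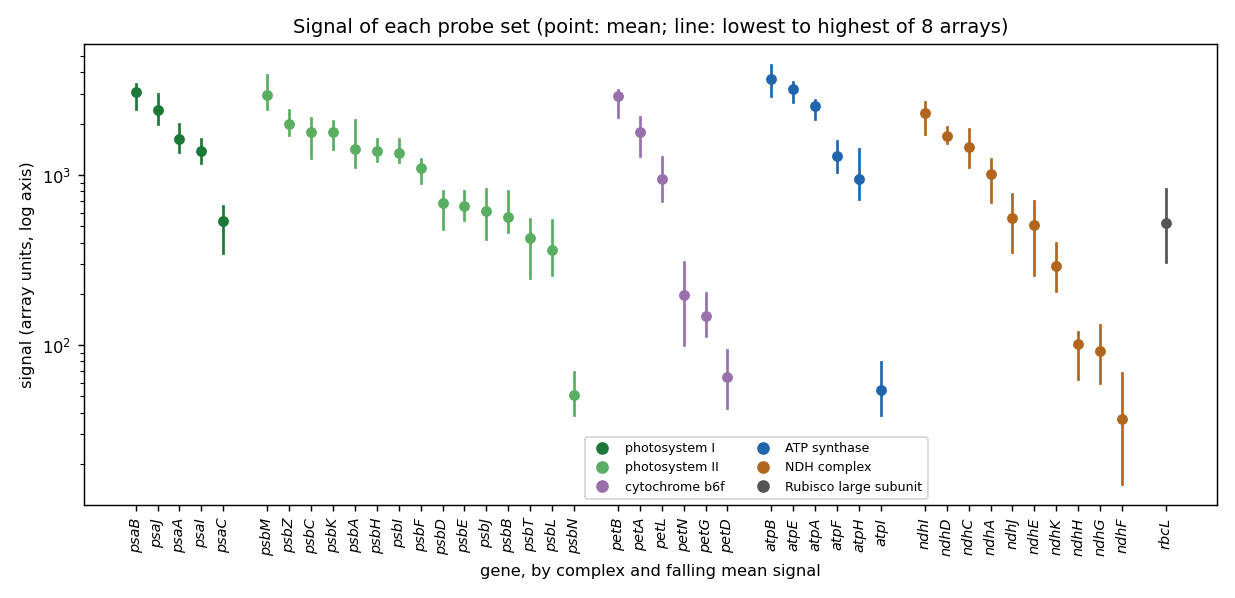
Signal of the 43 probe sets in array units on a log axis, by complex; points are means over all 8 arrays and lines run from the lowest to the highest array. Photosystem II, cytochrome b6f, ATP synthase and the NDH complex span bright probe sets and probe sets under 100 units. Photosystem I runs from 538 to 3080 units, and Rubisco has 1 gene. The extremes are atpB at 3683 units and ndhF at 36.5 units.

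Median signals were 1908 units for ATP synthase, 1622 units for photosystem I, 1094 units for photosystem II, 571 units for cytochrome b6f and 532 units for the NDH complex, and rbcL read 520.2 units. The complexes overlapped in brightness. The brightest probe sets were atpB and atpE (the beta and epsilon subunits of the ATP synthase catalytic head, 3683 and 3190 units), psaB (3080 units), psbM (2947 units) and petB (2893 units). The 5 probe sets under 100 units were ndhG, petD, atpI, psbN and ndhF, at 92.7, 65.0, 54.0, 50.8 and 36.5 units. Members of 1 transcription unit could differ widely: petB and petD, neighbours in the psbB unit, read 2893 and 65.0 units. rbcL, whose protein is among the most abundant in leaves, came 31 in the order of 43.

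None of the 43 genes passed the test between elevated and not-elevated arrays (limma, Benjamini-Hochberg adjusted p at 0.05 over 15296 probe sets), where 48 probe sets did, 0.314% of those tested. At an unadjusted p under 0.05 there were 4 of 43 members, 9.30%, beside 11.1% of all probe sets tested. The 4 arrays of each group did not overlap for 3 members, 6.98%, beside 6.11% of all tested. These shares lie near the background. On average 25 members read higher and 18 lower in elevated CO2, with a median difference of 0.02 on the log2(signal + 10) scale, which applies to all differences here and understates those of dim genes. Over all probe sets tested the count was 7704 higher and 7592 lower, with a median of 0.0013. With quantile normalization the members' split became 17 of 43 higher, with a median of -0.042.

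The precision of 4 arrays a group bounds what could have been seen. The 95% confidence interval of the difference spanned 0 for 39 of 43 members. It lay within 1.5-fold in either direction for 33 and within 2-fold for 42. The exception at 2-fold was ndhF, the dimmest, at -0.45 ± 0.30 (SE). These intervals use limma's moderated SE, which draws each gene's variance towards that of other probe sets of like signal. The member ndhE had a within-group SD of 0.59 and an SE of 0.28. For such variable members the gene's own spread alone would give a wider interval. Intervals from that spread were not computed, so the counts within 1.5-fold and 2-fold could be lower. In bulk leaf tissue, fewer cells of a type, fewer plastids and less RNA per cell cannot be told apart, and the scaling of each array to a common mean hides a change shared by all transcripts.

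**Figure D2:**
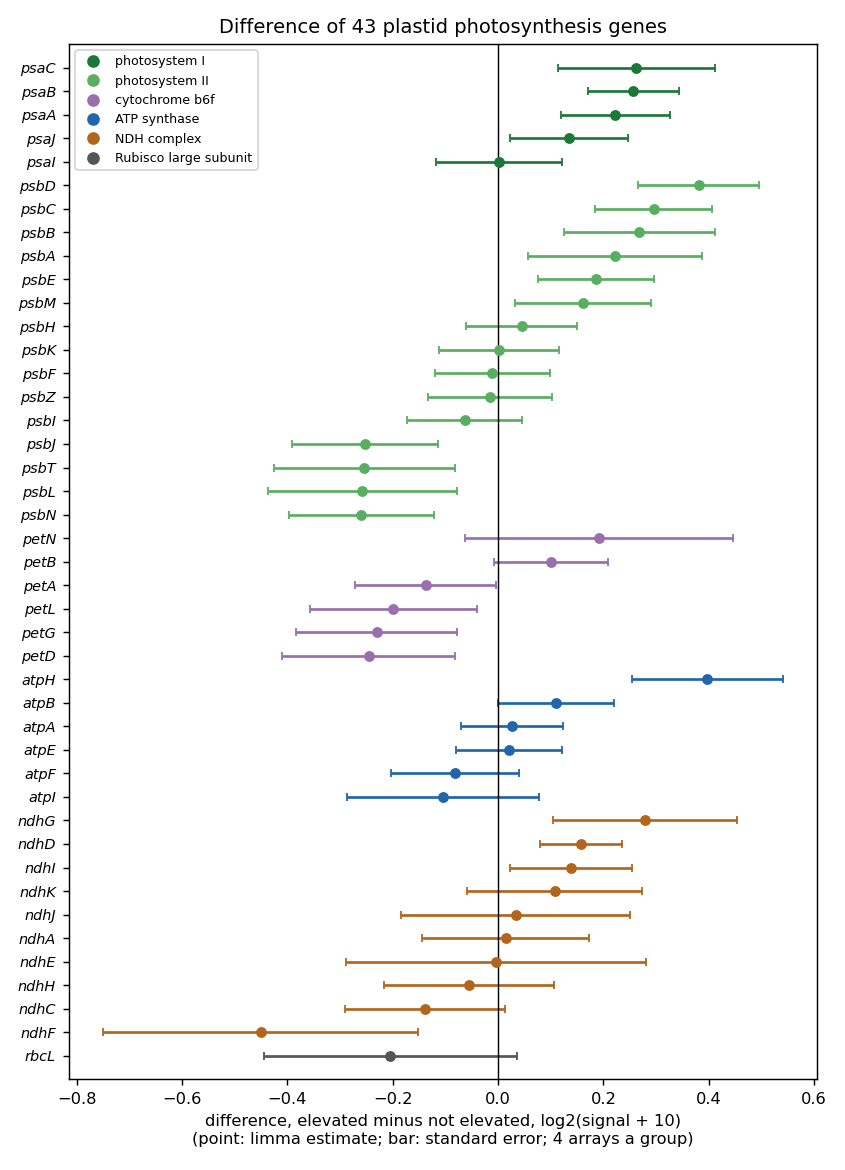
Difference of each gene between elevated and not-elevated arrays on the log2(signal + 10) scale, with limma's estimate as the point and its standard error as the bar (4 arrays a group), coloured by complex. The 5 photosystem I genes lie at or above 0, the other complexes lie on both sides, and the widest bars belong to ndhF and ndhE.

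The complexes had different signs on balance but small sizes. Photosystem I had 5 of 5 genes higher, with a median of 0.22, and cytochrome b6f 2 of 6, with a median of -0.17. Photosystem II had 8 of 15 higher (median 0.0024), ATP synthase 4 of 6 (median 0.023), and the NDH complex 6 of 10 (median 0.024), while rbcL stood at -0.20. The medians of ATP synthase and photosystem II turned negative with quantile normalization, to -0.083 and -0.048, and also without not-elevated replicate 2, to -0.055 and -0.010. Leaving out replicate 4 of the not-elevated group put the NDH median at -0.079, and leaving out replicate 4 of the elevated group put it at 0.13. The cytochrome b6f median was -0.085 without elevated replicate 1 and -0.11 without elevated replicate 4. Photosystem I had 4 of 5 genes higher without not-elevated replicate 4 (median 0.15) and, separately, without elevated replicate 3 (median 0.16). It also had 4 of 5 higher when replicate 2 of either group was left out. The median size of a difference regardless of sign was 0.16 for the members and 0.10 for all probe sets tested.

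Photosystem I is represented by its reaction centre pair psaA and psaB, the iron-sulfur subunit psaC and the small subunits psaI and psaJ. psaB read 2856, 2431, 3013 and 2943 units on not-elevated replicates 1 to 4 and 3422, 3252, 3348 and 3378 units on elevated replicates 1 to 4. All 4 elevated arrays were above all 4 others, and not-elevated replicate 2 was the lowest. The difference was 0.26 ± 0.087 (SE), 1.19 times in mean signal, with an adjusted p of 0.267 (limma). With quantile normalization it was 0.12, and the groups overlapped.

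psaA, the partner of psaB in the same dimer and the same transcription unit, read 1366, 1547, 1485 and 1565 units without elevation and 1408, 1815, 1986 and 1802 units with it. Elevated replicate 1 lay among the not-elevated arrays, and the other 3 elevated arrays were above them. The means were 1491 ± 90.05 and 1753 ± 244 units (SD, n = 4), a difference of 0.22 ± 0.10 with an adjusted p of 0.450. psaC had the same size of difference on a dimmer and more variable probe set, 0.26 ± 0.15, and the values were 0.14 ± 0.11 for psaJ and 0.0013 ± 0.12 for psaI. With quantile normalization 4 of the 5 photosystem I genes were higher, and the median was 0.12.

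In photosystem II the reaction centre proteins D1 and D2 come from psbA and psbD, and the inner antenna proteins CP47 and CP43 from psbB and psbC. psbD had the smallest p of all 43 genes. Its signal was 483, 763, 600.0 and 548 units on the not-elevated arrays and 764, 802, 752 and 768 units on the elevated arrays. The elevated arrays were close together, and the groups overlapped only through not-elevated replicate 2. The means were 599 ± 120 and 772 ± 21.2 units, a difference of 0.38 ± 0.12 (SE) with an unadjusted p of 0.0053 and an adjusted p of 0.214 (limma).

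psbC shares a transcription unit with psbD and read 1251, 1751, 1676 and 1757 units without elevation and 1888, 1806, 2168 and 1989 units with it. The groups did not overlap, and not-elevated replicate 1 was far below its group. The difference was 0.30 ± 0.11 with an adjusted p of 0.330, and 0.18 without that array. psbZ, also listed in that unit, encodes a small subunit and stood at -0.015 ± 0.12.

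psbA, whose D1 protein is replaced continuously in the light, read 1145, 1684, 1252 and 1111 units without elevation and 2107, 1234, 1557 and 1230.5 units with it. The groups overlapped, and elevated replicate 1 was the highest of the 8 arrays. The difference of 0.22 ± 0.17 (adjusted p 0.668) was 0.058 without that array, which also had the highest actin and GAPDH 3′ to 5′ ratios; the part of those ratios in the result was not tested.

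psbB read 459.7, 618, 477 and 483 units on the not-elevated arrays and 492, 686, 517 and 799.7 units on the elevated arrays. The groups overlapped, with elevated replicates 2 and 4 above the rest. The difference was 0.27 ± 0.14 with an adjusted p of 0.528, and 0.14 without elevated replicate 4.

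**Figure D3:**
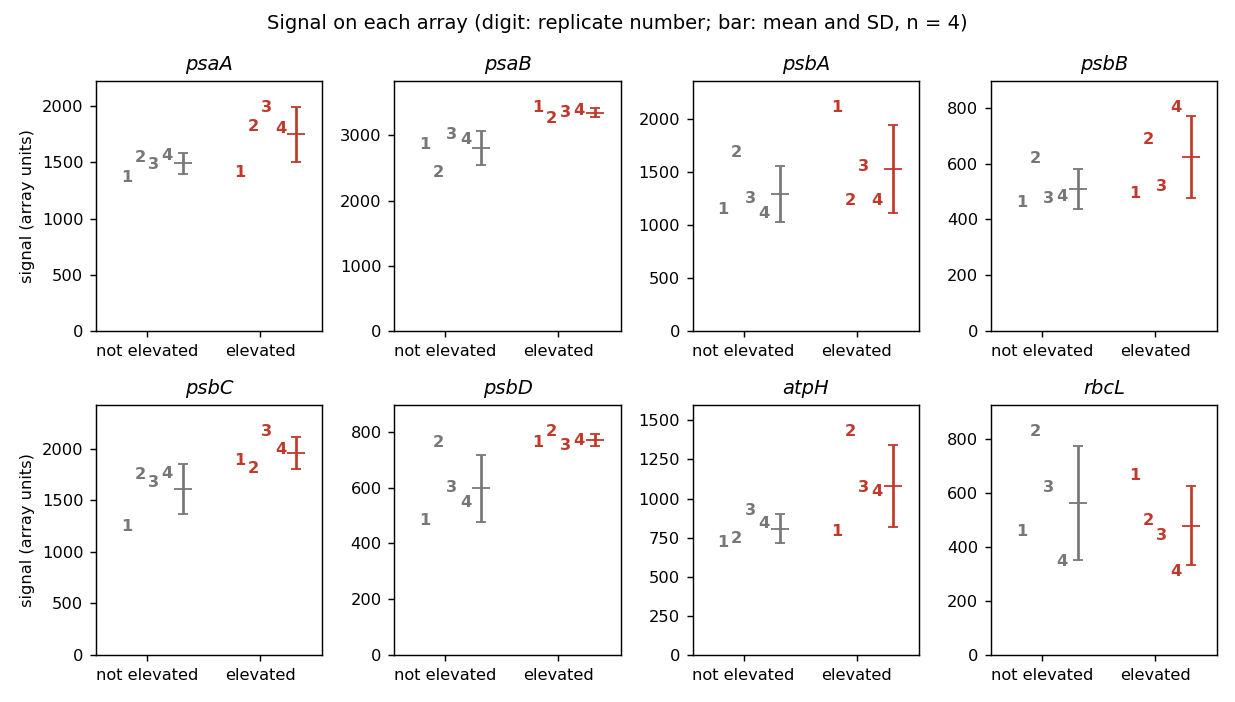
Signal in array units of 8 genes on every array; digits are replicate numbers and the bar at the right of each group is its mean with SD (n = 4). In psaB and psbC the 2 groups are apart, in atpH elevated replicate 1 alone of its group lies within the not-elevated range, and in psbA, psbB and rbcL the groups overlap.

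The 6 chlorophyll-binding core genes, psaA, psaB, psbA, psbB, psbC and psbD, were each higher on average in elevated CO2, with differences of 0.22 to 0.38 and a median of 0.26. This class was formed after the values were seen, and none of the 6 passed the test. The value closest to 0 under any alternative was 0.0047, for psbA without replicate 1 of both groups. The other 11 photosystem II genes, which encode small subunits, an assembly factor (psbN) and the chains of cytochrome b559, had 4 higher and 7 lower, with a median of -0.015. Among them psbE and psbF, the alpha and beta chains of cytochrome b559, stood at 0.19 ± 0.11 and -0.011 ± 0.11 (SE). psbM, the brightest photosystem II probe set, read 2841, 2438, 3172 and 2617 units without elevation and 2709, 2535, 3387 and 3874 units with it. Its groups overlapped, with elevated replicate 4 the highest, and the difference was 0.16 ± 0.13, and 0.052 without that array. The lowest values of the complex were those of psbJ, psbT, psbL and psbN, from -0.25 to -0.26, with adjusted p from 0.525 to 0.644 (limma).

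The cytochrome b6f genes encode cytochrome f (petA), cytochrome b6 (petB), subunit IV (petD) and the small subunits petG, petL and petN. petG read 188, 201, 134 and 123 units on not-elevated arrays and 120.1, 141, 165 and 113 units on elevated arrays. The groups overlapped, with not-elevated replicates 1 and 2 above the rest. Its difference was -0.23 ± 0.15 (adjusted p 0.626).

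petD read 53.5, 93.8, 75.4 and 63.0 units without elevation and 56.3, 59.4, 75.9 and 42.7 units with it, again overlapping, with a difference of -0.25 ± 0.16 (adjusted p 0.628). Not-elevated replicate 2 was the highest array for both petG and petD. Without it both were nearer 0, at -0.12 each. petB, more than an order of magnitude brighter, had 3128, 2198, 2957 and 2932 units without elevation and 2787, 2943, 3143 and 3059 units with it. Here not-elevated replicate 2 was the lowest array, and the difference of 0.10 ± 0.11 became -0.012 without it. petA, petL and petN stood at -0.14 ± 0.13, -0.20 ± 0.16 and 0.19 ± 0.25.

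ATP synthase has its catalytic head subunits alpha, beta and epsilon from atpA, atpB and atpE, and its membrane subunits from atpF, atpH and atpI. atpH encodes the subunit that forms the rotating c ring. It read 717, 744, 920.5 and 843 units on not-elevated arrays and 792, 1429, 1069 and 1042 units on elevated arrays. Elevated replicate 2 was the highest, and elevated replicate 1 lay within the not-elevated range. The difference of 0.40 ± 0.14, with an adjusted p of 0.306 (limma), was the largest of the 43 in the positive direction, and 0.26 without elevated replicate 2.

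atpB read 3961, 2913, 3657 and 3646 units without elevation and 3378, 3640.0, 3838 and 4427 units with it. The groups overlapped, with not-elevated replicate 2 lowest and elevated replicate 4 highest. The difference of 0.11 ± 0.11 was 0.019 without the lowest array, 0.037 without the highest and -0.058 with quantile normalization. The head subunits atpA and atpE stood at 0.026 and 0.02, and the membrane subunits atpF and atpI at -0.081 and -0.10.

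Of the NDH genes, which encode membrane-arm and connecting subunits, ndhD had the smallest p. It read 1721, 1562, 1599 and 1543 units without elevation and 1805, 1722, 1912 and 1729.8 units with it. The groups did not overlap, though the highest not-elevated array, at 1720.5 units, was just below the lowest elevated array, at 1722.4 units. The difference was 0.16 ± 0.079 with an adjusted p of 0.496.

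ndhG read 65.4, 130.2, 83.2 and 59.6 units without elevation and 108, 88.5, 102 and 104 units with it. Its elevated arrays were close together within the wide not-elevated range, and the difference of 0.28 ± 0.17 was 0.15 without not-elevated replicate 4 and 0.49 without not-elevated replicate 2. ndhI, the brightest NDH probe set, read 2380, 1739, 2400 and 2281 units without elevation and 2042, 2535, 2407 and 2678 units with it, and the groups overlapped. Its difference of 0.14 ± 0.12 was 0.030 without not-elevated replicate 2, the lowest array. The other 7 ran from -0.45 (ndhF) to 0.11 (ndhK), on both sides of 0.

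rbcL read 454.9, 827, 621 and 345 units on the not-elevated arrays and 664, 498, 444 and 308 units on the elevated arrays. The ranges overlapped almost entirely, and the arrays within a group differed by more than the groups. The difference was -0.20 ± 0.24 with an adjusted p of 0.817, and 0.0029 without not-elevated replicate 2. The genes for the small subunit of Rubisco, which the nucleus encodes, had no named probe set in the tables used here.

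The genes were also grouped by the transcription units known for land plant plastids. Of the 43 genes, 36 fall into 11 units, and in 8 of the 11 the members lay on both sides of 0. In some units that rests on a value well inside its error, such as psbK at 0.0024 ± 0.11 and psaI at 0.0013 ± 0.12 (SE), and whether unit members differ in their response was not tested. The psbB unit ran from -0.25 (psbT) to 0.27 (psbB), the atpI unit from -0.10 (atpI) to 0.40 (atpH), and the psbE unit from -0.26 (psbL) to 0.19 (psbE). The 3 units with 1 sign were psaA with psaB (0.22 and 0.26), atpB with atpE (0.11 and 0.02) and petL with petG (-0.20 and -0.23). The psbD unit had psbD and psbC at 0.38 and 0.30 beside psbZ.

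**Figure D4:**
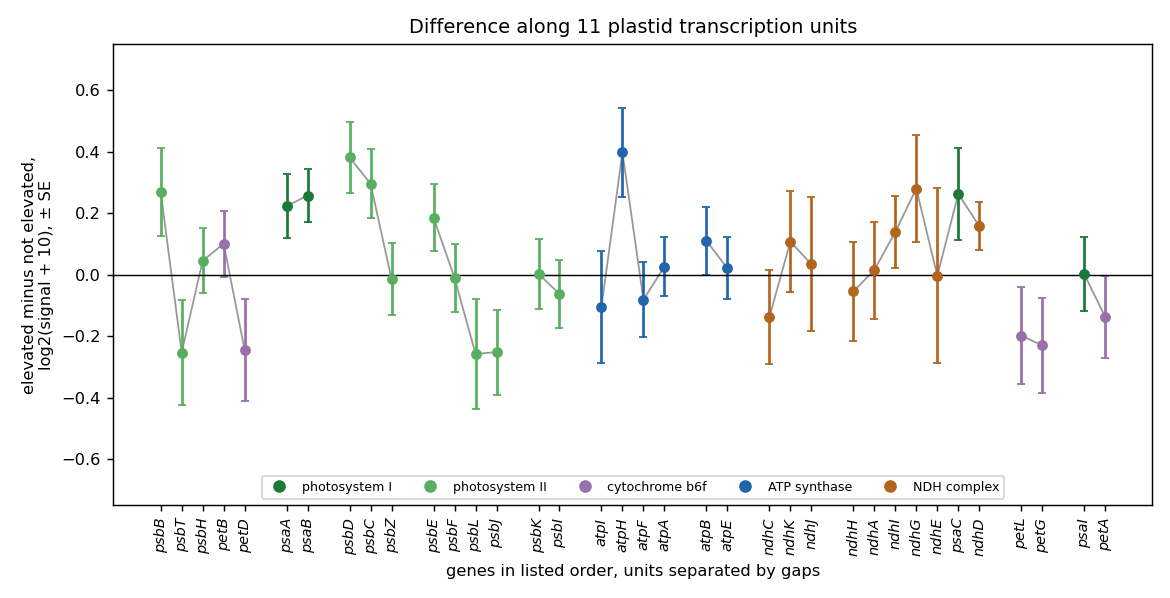
Difference between elevated and not-elevated arrays, log2(signal + 10) ± SE, for the 36 genes of 11 transcription units, in listed order along each unit and coloured by complex. Lines within a unit cross 0 in 8 of 11 units, and neighbours such as psbB and psbT differ by 0.52.

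Replicate arrays of the same group differed more for these genes than for most others. The within-group SD of log2 values had a median of 0.24 over the 43 members, 0.16 over all probe sets tested and 0.13 over the 3357 probe sets of at least 200 units. It was above the median of all tested in 39 of 43 members. The 26 other plastid genes had a median of 0.25. By complex it ran from 0.18 for photosystem I through 0.19 for ATP synthase, 0.20 for photosystem II and 0.29 for cytochrome b6f to 0.31 for the NDH complex, and rbcL stood at 0.49. The highest array was 2-fold or more above the lowest in 10 of 43 genes. The extremes were ndhF at 4.53-fold and petN at 3.09-fold, and ndhD at 1.24-fold was the steadiest.

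The strongest array pattern was carried by a few variable genes of different complexes. A first principal component of the 43 genes took 41.4% of their variance and had scores of 0.60 on not-elevated replicate 2 and 0.32 on elevated replicate 1, against -0.53 and -0.50 on replicate 4 of the not-elevated and elevated groups. Genes with the highest loadings were ndhE, ndhF, rbcL, petN and ndhJ, from 0.42 down to 0.32. Values were not scaled to equal variance, so variable genes weighed most. Some other members had negative loadings, such as ndhI at -0.12 and atpB at -0.11. ndhE, for example, read 620.4, 679, 489 and 259 units without elevation and 698, 508, 553 and 269 units with it, and both replicate 4 arrays were the lowest. A second component took 27.1% and set not-elevated replicate 1 (-0.63) apart from elevated replicate 1 (0.60). Neither component separated the groups. The 25S ribosomal RNA control read 600.2 units on not-elevated replicate 2, 100.7 units on elevated replicate 1, and 73.4 and 366 units on the replicate 4 arrays, and its part in the pattern was not tested.

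Elevated replicate 3 had 35 of 43 genes above their own mean over the 8 arrays, and not-elevated replicate 4 had 8. The other arrays had 17 to 25. Over all probe sets tested the same count ran from 7184 to 8301 of 15296, and elevated replicate 3 had the lowest. Arrays are scaled to a common trimmed mean, and the tested probe sets had a median of 84.4 units against 1014 units for the members. That count is therefore not a matched background for the plastid genes. The 26 other plastid genes had the same arrays at the ends, with 21 above their mean on elevated replicate 3 and 6 on not-elevated replicate 4.

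**Figure D5:**
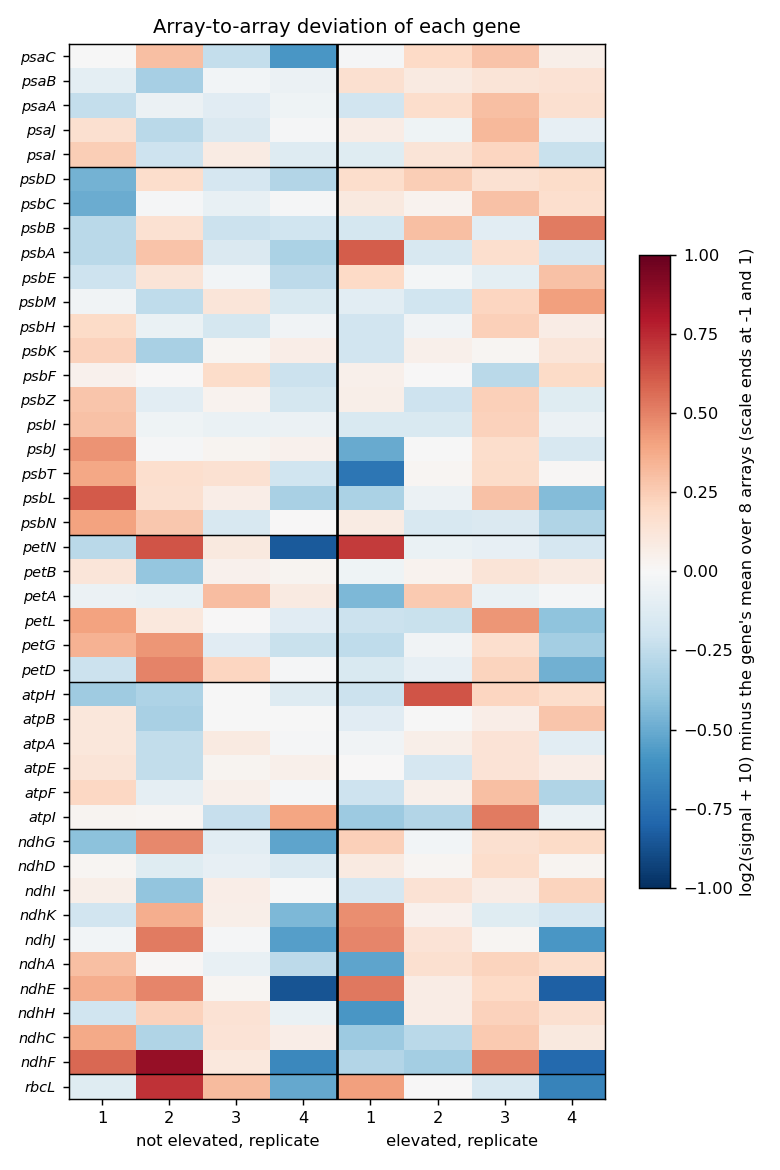
Each row is 1 gene and each column 1 array; colour gives log2(signal + 10) minus the gene's mean over the 8 arrays, with the scale ending at -1 and 1, and lines divide the complexes. Columns differ within a group: not-elevated replicate 2 and elevated replicate 1 are high for ndhE, ndhJ, ndhK, petN and rbcL, both replicate 4 arrays are low for ndhE, ndhF, ndhJ and rbcL, and elevated replicate 3 is above the mean in 35 genes.

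Other genes of the plastid expression system gave a background for these values. Of the 26 other plastid genes, 9 were higher and 17 lower on average in elevated CO2, with a median of -0.036 and none past the threshold (limma). The share higher was 34.6%, beside 50.4% of all probe sets tested. At an unadjusted p under 0.05 (limma) there were 4, 15.4%, beside 11.1% of all tested. The 15 ribosomal protein genes had 2 higher and 13 lower, with a median of -0.13. Their lowest values were in rpl20 (-0.53) and rpl36 (-0.51), and the highest was in rps4 (0.088). The 4 core subunits of the plastid-encoded polymerase, rpoA, rpoB, rpoC1 and rpoC2, had 2 in each direction; rpoB, at 0.43 ± 0.19, read 33.5 ± 12.2 and 47.6 ± 10.2 units. The remaining 7, accD, ccsA, cemA, clpP, matK, ycf3 and ycf4, had 5 higher and a median of 0.18, from -0.022 (ycf3) to 0.30 (accD). The ribosomal protein class and the remaining class were not among the chosen gene lists. The difference between these classes and the photosynthesis genes was not tested.

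Nuclear genes for the same complexes were few on these tables, and none passed the threshold. Of 8 tested, 7 were higher: PSAE-1 and PSAN of photosystem I (0.0062 and 0.15), PSBW and PSBY of photosystem II (0.052 and 0.22), a cytochrome b6f subunit (0.041), ATPC1, the gamma subunit of ATP synthase (0.19), and NdhN (0.068). The exception was NdhL, at -0.078. Several of these lie well inside their error, such as PSAE-1, with an SE of 0.13. Of tested probe sets of at least 200 units, 53.9% were higher. Of the listed genes, 2 of 12 were named for photosystem I, 2 of 10 for photosystem II and 1 of 2 for cytochrome b6f. For ATP synthase 1 of 3 was named, and for the NDH complex 2 of 6. Of 3 phage-type organelle polymerases 1 was named, at 0.33 ± 0.24 on a dim probe set of 20.5 and 28.9 units. The sigma factors, which direct the plastid polymerase to its promoters, the polymerase-associated proteins and the transcript stability factors had 0 named probe sets in these tables, so they give no value here.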

How the data were processed

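Biotin-labelled total RNA was hybridised to 8 arrays. Each deposited value is a probe set's intensity, unlogged, which the submitters' processing notes credit to MAS5. Each array's trimmed mean is 100.0 units. Detection calls were not used here, and the number of arrays limits the precision. Gene names came from the array's platform annotation, updated with RefSeq's TAIR10.1 table. Among 22746 probe sets, 13513 had 1 gene, 503 had several and 8730 had none, with 64 controls left out. No build is named in the files, and no coordinates are given.

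Signals became log2(signal + 10), and probe sets with a mean of at least 20 units were compared with limma 3.58.1 in R 4.3.3 (lmFit, eBayes with trend), two-sided, with Benjamini-Hochberg adjustment over 15296 probe sets. On simulated arrays with independent noise the test recovered 63.4% of 1.5-fold and 91.6% of 2-fold changes, and 5.6% of calls were false. Changed probe sets were drawn at random from all tested, so these shares do not carry over to the members, whose spread is larger. Members, lists and tests were chosen with earlier results of these data known. Values on every array are given for the 2 smallest p and the brightest member of each complex, and for psaA, psaB, psbA, psbD and rbcL; psbB and ndhE were added after their values were seen. Lists were transcription units, the plastid polymerase core, sigma factors, phage-type polymerases, polymerase-associated proteins, stability factors, nuclear subunits, Rubisco small subunits and tissue markers. Alternatives were other normalizations, pseudocounts of 1 and 50, other filters, eBayes without trend, array weights, a replicate block and arrays left out. The main test did not pair samples by replicate number, though title codes rise with that number across both groups. Same-number correlations of deviations ran from -0.18 to -0.037 over the probe sets tested. Over the 43 members they ran from -0.48 to 0.66, with 0.66 for replicate 4. Pairs of unlike number ran from -0.037 to 0.10 over the probe sets tested and from -0.53 to 0.56 over the members. Such correlations cannot show whether arrays of 1 number were handled together.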

Additional observations from a re-analysis of the deposited data

Results flagged for a closer look

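Single arrays far from the other 3 of their group were picked by Dixon's criterion, which chance meets in about 1 in 20 groups. It picked 6 of 86 groups of member signals, where 4.3 would be expected, and 1 of 12 groups of array measures. Not-elevated replicate 1 accounted for 3 of the 6: psbC at 1251 units where the others read 1676 to 1757, psbI at 1629 units where the others read 1269 to 1289, and psbJ at 824 units where the others read 595.6 to 622. Elevated replicate 1 accounted for 2, ndhA at 689 units beside 1116 to 1163 and petN at 307 units beside 165 to 177. psbB read 618 units on not-elevated replicate 2 beside 459.7 to 483 units on the others. The 25S ribosomal RNA control read 600.2 units on that same array beside 73.4 to 147 units.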

How the results depend on the processing

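Under all 20 alternatives 0 members passed the threshold, and the smallest adjusted p of any member ran from 0.0912 (psbD, without not-elevated replicate 2) to 0.416 (ndhF, without not-elevated replicate 4). Members higher in elevated CO2 numbered 17 with quantile normalization and 20 to 29 with 1 array left out. Members whose groups do not overlap, 3 as deposited, numbered 0 with quantile normalization and 0 with plastid probe sets centred on their median. Members that changed sign were listed only for the 15 genes named by the rule, where directions reversed for atpB with quantile normalization (-0.058), petB with quantile normalization (-0.0034) and without not-elevated replicate 2 (-0.012, the lowest with 1 array left out, the highest being 0.16), and rbcL without not-elevated replicate 2 (0.0029, the highest, the lowest being -0.41); the cause was not tested. The replicate block leaves the differences themselves unaltered in this balanced design, so 25 members stay higher by construction; 0 passed the threshold and 6 of 43 had an unadjusted p under 0.05, against 4 without it, while over all 15296 probe sets that count was 1429 with the block and 1703 without. Over all probe sets the calls, 48 as reported, were 50 with the block, 30 with quantile normalization, 33 with scaling to a common median, 28 with a pseudocount of 1, 1 with no filter, 9 without the trend, 132 with array weights, 144 without replicate 1 of both groups, and 0 to 132 with 1 array left out. Each gene had 1 probe set, so averaging probe sets changed no value. The deposited signals carry no probe-level error, and signal over background limits the 5 probe sets under 100 units.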
